A study of Mus musculus with 15 samples.

Results

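Fibroblast growth factors (FGFs) and their receptors were measured in lung tissue of mice that carry an SP-C/c-raf transgene. The genes described are 10 of 18193 named by the array's probe sets, chosen by name: the receptors Fgfr1, Fgfr2, Fgfr3 and Fgfr4, the receptor-like Fgfrl1, and the ligands Fgf1, Fgf2, Fgf7, Fgf10 and Fgf18. They were read by 23 probe sets, of 45037 on the array besides the controls, each annotated to a single gene. Of these 23, 16 probe sets of 8 genes had a mean signal above 100 over the 15 arrays and were tested among 21658 probe sets that passed the same limit. Fgf2 and Fgf10 had their only probe set under that limit.

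In the SP-C/c-raf line the surfactant protein C promoter drives c-Raf, a kinase that acts below receptor tyrosine kinases, in epithelial cells of the lung. Tissue was cut from sections by laser microdissection, collected within a mouse and hybridised to 1 Affymetrix Mouse Genome 430 2.0 array per sample. The groups were 5 samples of dysplasia and 5 of transgenic but unaltered tissue, both from SP-C/c-raf mice aged 5 to 7 months. A further 5 samples were lung of non-transgenic littermates aged 7 to 10 months. The line was first bred on a C57BL/6/DBA/2 hybrid background and later kept on C57BL/6 for at least 5 generations. Xist, the RNA of the inactive X chromosome of females, had a high signal on 2 dysplasia, 1 transgenic and 4 non-transgenic arrays, so that the non-transgenic group differed in sex as well. Dysplasia and transgenic tissue came from the same mice, and 1 of the 2 dysplasia arrays also had a raised signal of a Y-linked gene. Age and transgene cannot be told apart in comparisons with the non-transgenic group, and p-values measure the spread between these samples. The values are scaled array signals, set so that each array has the same trimmed mean, and with 5 arrays a group the precision is limited by their number.

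FGFs are secreted ligands that bind receptor tyrosine kinases together with heparan sulfate chains on the cell surface. In the lung, mesenchymal cells make Fgf7 and Fgf10, which act on a splice form of Fgfr2 carried by epithelial cells, while Fgfr3 and Fgfr4 are known for their part in the formation of alveoli. Bound receptors signal through adaptor proteins to Ras, Raf and ERK, and ERK activity induces feedback inhibitors such as the Sprouty and Spred proteins and Dusp6.

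A pair of arrays stood apart from their labels. Transgenic 2 is titled as unaltered transgenic tissue, while a further label field calls it tumor of a 6 month old male. Dysplasia 4 had both a high signal of Xist (9674) and a raised signal of the Y-linked gene Eif2s3y (495), whereas on the other 14 arrays a high Xist signal (11506 or more) came with an Eif2s3y signal of 14.8 or less. Results for the leading genes are given with and without these arrays. Mean signals per array lay between 692 and 775, and 44.1 to 49.9% of probe sets had a signal above 100. The 5′ to 3′ ratio of the actin control probe sets, a sign of RNA integrity, varied between arrays. Group medians were 57.1% for dysplasia, 38.9% for unaltered transgenic and 31% for non-transgenic tissue. The ranges overlapped widely (25.1 to 75.2%, 12.5 to 63.4% and 14.1 to 72.8%). In each group the ratio was highest on array number 2 and lowest on number 5.

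The largest changes among these genes were in Fgfr4, Fgf7 and Fgfr2, and the sequence before the annotated start of each is shown for that reason (RefSeq, GRCm38.p6, 250 bases, 5′ to 3′ on the strand of the gene). Fgfr4 lies on chromosome 13 (55152818 to 55168759), Fgf7 on chromosome 2 (126034658 to 126091185) and Fgfr2 on chromosome 7 (130162451 to 130266808). Capitals mark matches, on either strand, to the GC box GGGCGG, the Ets core CCGGAA and the CCAAT box; the TATA box TATAAA and the AP-1 site TGANTCA were searched too. The listed motifs do not overlap one another in these windows.
Fgfr4 (chr13:55152568-55152817, plus strand): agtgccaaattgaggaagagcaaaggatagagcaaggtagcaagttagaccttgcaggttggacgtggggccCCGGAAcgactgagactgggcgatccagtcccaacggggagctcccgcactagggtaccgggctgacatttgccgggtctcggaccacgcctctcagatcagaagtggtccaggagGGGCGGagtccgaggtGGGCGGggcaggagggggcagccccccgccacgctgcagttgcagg
Fgf7 (chr2:126034408-126034657, plus strand): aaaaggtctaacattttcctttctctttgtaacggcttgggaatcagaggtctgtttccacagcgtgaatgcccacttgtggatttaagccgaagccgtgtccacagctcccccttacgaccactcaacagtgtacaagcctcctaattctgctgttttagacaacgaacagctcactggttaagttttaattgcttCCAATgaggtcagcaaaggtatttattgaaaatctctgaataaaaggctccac
Fgfr2 (chr7:130266809-130267058, minus strand): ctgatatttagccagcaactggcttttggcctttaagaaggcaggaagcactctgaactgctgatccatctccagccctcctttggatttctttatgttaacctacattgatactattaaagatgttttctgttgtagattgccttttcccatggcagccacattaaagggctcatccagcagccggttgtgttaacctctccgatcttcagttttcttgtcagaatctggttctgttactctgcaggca

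Of 32851 such windows, 32.7% held a GC box, 12% an Ets core, 33.8% a CCAAT box, 12.4% a TATA box and 6.75% an AP-1 site. The Fgfr4 window held 2 GC boxes and 1 Ets core, the Fgf7 window 1 CCAAT box, and the Fgfr2 window no match to any of these letters. The GC content was 64% in the Fgfr4 window, 43.6% in that of Fgf7 and 44% in that of Fgfr2, with a median of 52.4% over all windows. These matches describe the letters of the windows only. Windows of 8 of the 10 genes were read.

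Comparison of dysplasia with unaltered tissue of transgenic mice asks which transcripts differ in the lesion. Of the 16 tested FGF probe sets, 2 were higher in dysplasia, both of Fgfr2, and 9 were lower, of Fgfr4, Fgf7, Fgfrl1, Fgf1, Fgf18 and Fgfr1 (limma, adjusted p under 0.05). Thus 68.8% of the FGF probe sets were called, against 33.2% of all probe sets tested; over all probe sets 15.3% were higher and 17.9% lower. The median log2 change was -0.36 over the FGF probe sets and -0.01 over all tested. The groups did not overlap for 2 higher and 4 lower FGF probe sets, where the shares over all probe sets were 11.8% and 13.6%. Under a stricter rule, an adjusted p up to 0.001 with a ratio of 2 or more, none was higher and 2 were lower (Fgfr4 and Fgf7), against 3.10% and 5.32% of all probe sets. Of the 16, 3 (Fgfr4 1427846_x_at, Fgf7 1422243_at and Fgfr1 1425911_a_at) averaged under 100 in dysplasia and passed the limit through the other groups, where they are higher, so these counts and medians are descriptive. In the fit of all probe sets without the limit, which holds each of the 23 FGF probe sets, 2 were higher and 10 lower, where 17.9% of all probe sets were called in either direction. Changes are given on the log2 scale of signal plus 50, which understates those of dim probe sets, and folds are ratios of mean signals.

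**Figure D1:**
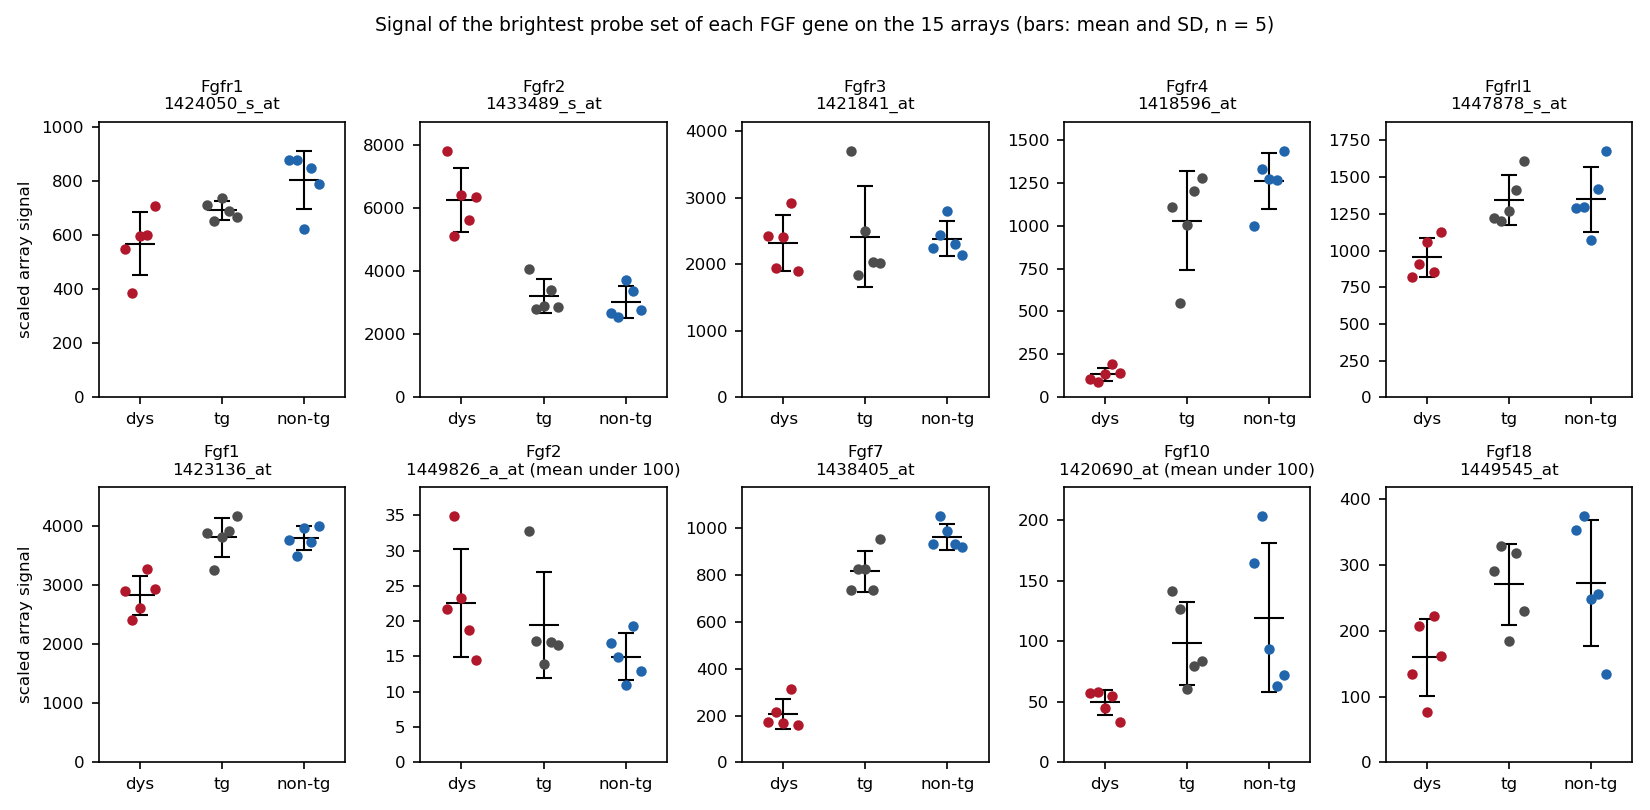
Scaled array signal (vertical axes, linear, from 0) of the brightest probe set of each of the 10 FGF genes in dysplasia (dys), transgenic but unaltered (tg) and non-transgenic (non-tg) tissue; each point is an array, and bars give the mean and SD of 5 arrays. Dysplasia lies apart from both other groups for Fgfr4, Fgf7 and Fgfr2, while the groups overlap for Fgfr3.

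Among the receptors, Fgfr4 fell most. At probe set 1418596_at the signals in dysplasia 1 to 5 were 107, 89.7, 134, 192 and 143. In transgenic 1 to 5 they were 1112, 550, 1002, 1201 and 1279, and in non-transgenic 1 to 5 they were 996, 1328, 1271, 1265 and 1434. Every dysplasia array lay below every other array, and transgenic 2 was the lowest outside dysplasia. The group means were 133 ± 38.9, 1029 ± 287 and 1259 ± 162 (SD, n = 5 each), in that order, so that dysplasia was 7.74-fold lower than in transgenic tissue. The log2 change was -2.53 (SE 0.22, limma adjusted p = 1.14e-05), -2.64 without dysplasia 4, -2.73 without transgenic 2 and -2.84 without both. Both tissues were taken from the same mice, although no source used here says that the array number marks the mouse, and Xist differed within number 4 (9674 in dysplasia, 85.0 in transgenic tissue). Between same-numbered arrays Fgfr4 was lower in dysplasia in 5 of 5 pairs, by 6.13-fold to 10.4-fold.

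The 4 further probe sets of Fgfr4 were dim. At 1427846_x_at, the other tested one, dysplasia signals ran from 44.0 to 81.8 and transgenic signals from 104 to 150, with no overlap, a log2 change of -0.63 (SE 0.11, limma adjusted p = 0.00131) and a fold of 1.98. Below the signal limit, 1427777_x_at lay at 16.8 to 24.1 in dysplasia and 80.7 to 147 in transgenic tissue, and 1427776_a_at at 12.1 to 27.6 and 49.2 to 132. Neither overlapped between the groups, and both were called lower when all probe sets were fitted without the limit (log2 changes -1.22 and -0.97), a fit that called 9.82% of all probe sets lower. Probe set 1427845_at had signals of 1.08 to 33.1 over the 15 arrays and was not called. Over the 15 arrays the tested pair of Fgfr4 probe sets correlated at r = 0.84, as a description.

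Fgfr2, the receptor through which Fgf7 and Fgf10 reach lung epithelium, was the single member that rose. At probe set 1433489_s_at the dysplasia signals were 7813, 5126, 6422, 5640 and 6363. The transgenic signals were 4081, 2817, 2888, 3405 and 2866, and the non-transgenic signals 2678, 2542, 3733, 3386 and 2778. All 5 dysplasia arrays lay above the other 10. The means were 6273 ± 1015, 3211 ± 542 and 3023 ± 512 (SD, n = 5 each), a 1.95-fold increase over transgenic tissue with a log2 change of 0.96 (SE 0.14, limma adjusted p = 0.000324).

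The second tested probe set of Fgfr2, 1420847_a_at, gave 962, 964, 659, 518 and 502 in dysplasia against 187 to 425 in transgenic and 203 to 312 in non-transgenic tissue. It was 2.30-fold higher than in transgenic tissue (log2 change 1.08, SE 0.24, limma adjusted p = 0.00468), again without overlap. Both probe sets were higher in 5 of 5 same-numbered pairs, by 1.66-fold to 2.22-fold at the first and 1.85-fold to 2.68-fold at the second. Without dysplasia 4 and transgenic 2 the log2 changes were 0.95 and 1.29, and both calls held. The third probe set, 1443211_at, was dim (mean signal 40.9), overlapped between groups and was not called. Which splice forms of Fgfr2 these probe sets read was not analysed here.

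Fgfr3, which is known for its part with Fgfr4 in alveolar septation, showed no call. Its bright probe set 1421841_at ran from 1900 to 2920 in dysplasia, from 1836 to 3701 in transgenic and from 2137 to 2807 in non-transgenic samples, so that all 3 groups overlapped. The log2 change against transgenic tissue was -0.03 with a 95% interval of -0.45 to 0.39 (limma adjusted p = 0.935). The other Fgfr3 probe set, 1425796_a_at, had a mean signal of 55.6 and was not called without the limit.

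Fgfr1, the receptor of many mesenchymal cells, gave lower means in dysplasia at each of its 3 probe sets, but the calls were weak. At the brightest, 1424050_s_at, dysplasia lay between 387 and 706 and transgenic tissue between 650 and 738, which overlapped (log2 change -0.28, SE 0.13, limma adjusted p = 0.133). At 1436551_at dysplasia signals were 104 to 166 and transgenic signals 147 to 320 (log2 change -0.50, SE 0.17, limma adjusted p = 0.0467). That call was lost without dysplasia 1, 2, 3 or 5, or without transgenic 3, 4 or 5, each taken out alone (adjusted p 0.0638 to 0.0997), and it held in 9 of 22 alternatives. At 1425911_a_at the log2 change was -0.25 (limma adjusted p = 0.255), and the fit with same-numbered arrays as a block called it lower (adjusted p = 0.0190). The 3 probe sets correlated with each other at r = 0.18 to 0.57 over the 15 arrays.

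Fgfrl1 encodes a receptor-like protein that binds ligand but lacks the kinase domain. At 1447878_s_at the dysplasia signals were 820, 909, 1055, 856 and 1129, and the transgenic signals 1220, 1201, 1268, 1413 and 1610. The groups did not overlap, and Fgfrl1 was lower in dysplasia by 1.41-fold (log2 change -0.47, SE 0.12, limma adjusted p = 0.00951). This call held under each alternative. The second probe set, 1451912_a_at, changed in the same direction without a call (log2 change -0.21, SE 0.10, limma adjusted p = 0.147).

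Among the ligands Fgf7, the keratinocyte growth factor of mesenchymal cells, fell most. At probe set 1438405_at the dysplasia signals were 172, 214, 170, 315 and 161. In transgenic tissue they were 737, 828, 826, 738 and 954, and in non-transgenic tissue 932, 1052, 989, 933 and 920. The highest dysplasia signal, that of dysplasia 4, was below the lowest of the other 10 arrays. The means were 206 ± 64.1, 816 ± 88.9 and 965 ± 55.5 (SD, n = 5 each). Fgf7 was thus 3.96-fold lower than in transgenic tissue, with a log2 change of -1.78 (SE 0.15, limma adjusted p = 1.04e-05), -1.92 without dysplasia 4 and -1.91 without dysplasia 4 and transgenic 2. It was lower in 5 of 5 same-numbered pairs, by 2.34-fold to 5.93-fold.

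The second Fgf7 probe set, 1422243_at, was dimmer and spread more. Dysplasia signals were 65.6, 49.6, 42.5, 47.6 and 25.1, and transgenic signals 197, 195, 186, 95.4 and 47.5. Transgenic 5 overlapped the dysplasia group, the other 4 transgenic arrays did not. The log2 change was -0.94 (SE 0.25, limma adjusted p = 0.0139), and the call was lost without both dysplasia 4 and transgenic 2 (log2 change -0.84, adjusted p = 0.0593).

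Fgf10, the mesenchymal ligand that directs lung budding, was below the signal limit at its only probe set, 1420690_at. Its signals were 57.2, 58.1, 44.8, 54.9 and 33.6 in dysplasia and 141, 127, 60.9, 79.5 and 83.5 in unaltered transgenic tissue, with 164, 203, 93.6, 63.3 and 72.6 for the non-transgenic mice. Dysplasia did not overlap either group, although the gap to transgenic 3 and non-transgenic 4 was narrow. In the fit without the limit the log2 change against transgenic tissue was -0.55 (SE 0.15, limma adjusted p = 0.0278). Fgf2, a ligand with broad receptor binding, had signals of 10.9 to 34.8 over the 15 arrays at 1449826_a_at and was not called.

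Fgf1, a ligand that binds each of the FGF receptors, changed little. At its brightest probe set, 1423136_at, dysplasia signals were 2907, 2406, 2613, 3279 and 2943 and transgenic signals 3880, 3260, 3817, 3927 and 4169, with dysplasia 4 just above transgenic 2. The mean was 1.35-fold lower in dysplasia (log2 change -0.43, SE 0.11, limma adjusted p = 0.00925). Of 23 alternatives, only the permutation statistic of the kind the study used lost the call (adjusted p = 0.0525). At 1450869_at the log2 change was -0.28 (SE 0.09, limma adjusted p = 0.0324), a call lost without any single one of dysplasia 1, 2 and 3 and transgenic 3, 4 and 5 (adjusted p 0.0575 to 0.0835). The third probe set, 1441042_at, ran from 77.2 to 424 in dysplasia and 115 to 438 in transgenic tissue, was not called, and correlated with the other two at r = -0.18 and -0.11.

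Fgf18, a ligand active in late lung development, had signals of 134, 207, 76.8, 222 and 161 in dysplasia and 291, 329, 184, 318 and 229 in transgenic tissue at 1449545_at. The ranges overlapped, and the mean was 1.69-fold lower in dysplasia (log2 change -0.64, SE 0.21, limma adjusted p = 0.0394). The call was lost without dysplasia 1, 3 or 5 or without transgenic 1, 2, 4 or 5, each taken out alone (adjusted p 0.0503 to 0.0925). In same-numbered pairs Fgf18 was lower in dysplasia in 5 of 5.

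**Figure D2:**
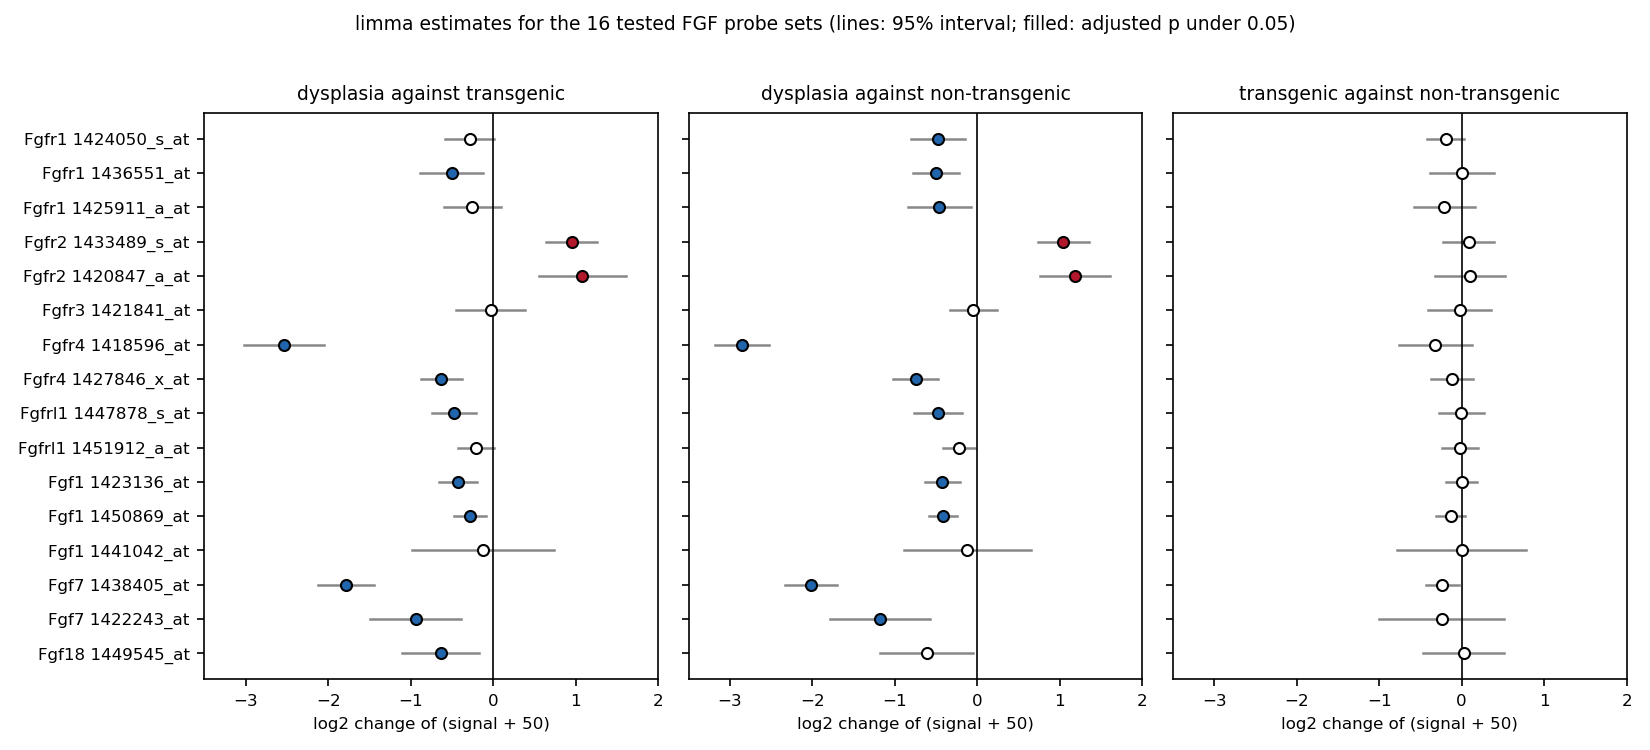
Log2 change of signal plus 50 (horizontal axes) for the 16 tested FGF probe sets in the 3 comparisons, as limma estimates with 95% intervals; filled points passed an adjusted p of 0.05, red for higher and blue for lower. Fgfr2 stands alone on the right in both comparisons of dysplasia, Fgfr4 and Fgf7 lie farthest left, and no point is filled for transgenic against non-transgenic tissue.

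Comparison of dysplasia with non-transgenic lung used the same 5 dysplasia arrays, so that it is not independent of the first. The 16 FGF probe sets gave 2 higher, again those of Fgfr2, and 10 lower, of Fgfr4, Fgf7, Fgf1, Fgfr1 and Fgfrl1; 75% were called, against 44.0% of all probe sets (20.7% higher, 23.3% lower). The median log2 change was -0.47 over the FGF probe sets and -0.03 over all. The groups did not overlap for 2 higher and 6 lower, against 15.8% and 17.5% of all probe sets. The stricter rule gave 2 higher and 3 lower, against 4.90% and 7.54%: both probe sets of Fgfr2, both tested ones of Fgfr4 and 1438405_at of Fgf7. Again, Fgfr4 1427846_x_at, Fgf7 1422243_at and Fgfr1 1425911_a_at averaged under 100 in dysplasia and passed the limit through the other groups. They are higher there, so these counts and medians are descriptive. In the fit without the limit 2 of the 23 FGF probe sets were higher and 12 lower, where 24.9% of all probe sets were called.

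Fgfr4 at 1418596_at was 9.46-fold lower in dysplasia than in non-transgenic lung (log2 change -2.85, SE 0.15, limma adjusted p = 2.14e-07), and Fgf7 at 1438405_at was 4.68-fold lower (log2 change -2.02, SE 0.14, limma adjusted p = 1.43e-06). Fgfr2 was 2.07-fold higher at 1433489_s_at and 2.57-fold higher at 1420847_a_at (log2 changes 1.04 and 1.18, limma adjusted p = 0.000117 and 0.000487). Each of these calls held under every alternative tried. Fgf10 gave a log2 change of -0.70 (limma adjusted p = 0.0347) without the signal limit, a fit in which 14.1% of all probe sets were lower.

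Fgfr1 was called lower at all 3 probe sets in this comparison, with log2 changes of -0.48, -0.50 and -0.46 (limma adjusted p = 0.0232, 0.00816 and 0.0492). The third, 1425911_a_at, averaged 80.8 in dysplasia and passed the signal limit only through the other groups, where it is higher. The first call was lost without non-transgenic 1, 2 or 4, each alone (adjusted p 0.0502 to 0.0541). The third was lost without any single array except dysplasia 2 and non-transgenic 5 (adjusted p 0.0562 to 0.115). Fgf18 was not called (log2 change -0.61, limma adjusted p = 0.0754), but was without non-transgenic 5 (adjusted p = 0.0151). The less bright Fgfrl1 probe set, with adjusted p = 0.0606, passed without dysplasia 5 (adjusted p = 0.0478).

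Comparison of unaltered transgenic with non-transgenic tissue asks what differs outside the lesions in mice that carry the transgene, but the groups also differ in age and in the share of arrays with high Xist (1 of 5 against 4 of 5). None of the 16 FGF probe sets was called by limma or by the permutation statistic, and 1 had an unadjusted p under 0.05; over all probe sets 1.26% were called, 1.17% higher and 0.0831% lower. That 1 was Fgf7 at 1438405_at, where transgenic signals of 737 to 954 overlapped the non-transgenic ones of 920 to 1052 (log2 change -0.23, 95% interval -0.43 to -0.04, limma adjusted p = 0.311). For Fgfr4 at 1418596_at the log2 change was -0.32 with an interval of -0.76 to 0.12 (limma adjusted p = 0.582), and for Fgfr2 at 1433489_s_at it was 0.09 with an interval of -0.22 to 0.39 (limma adjusted p = 0.889). The medians were -0.02 over the FGF probe sets and -0.02 over all. With Xist as a covariate none of the 16 was called either by limma, and calls over all probe sets went from 272 to 110.

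Genes that mark cell types moved between the groups as well, and their part in the FGF results was not tested. A gene counts as higher or lower here if any of its tested probe sets was called; over all 11603 genes tested, 44.2% were called in dysplasia against transgenic tissue, 21.3% higher and 22.8% lower. All 12 tested endothelial marker genes were lower in dysplasia than in transgenic tissue (median log2 change over their probe sets -1.74), and their summed signal ran from 17103 to 25544 on dysplasia arrays, from 53948 to 78093 on transgenic and from 62537 to 81825 on non-transgenic ones. Of 12 tested fibroblast and mesenchymal markers 7 were lower and 2 higher, with a median of -1.01 and sums of 35322 to 54696, 74100 to 92848 and 81562 to 94327. Of 8 smooth muscle and pericyte markers 7 were lower (sums 9063 to 12771 and 14731 to 19584), as were 4 of 4 mesothelial markers (273 to 664 and 1915 to 2604). No endothelial marker, 1 of 13 mesenchymal, 1 of 9 smooth muscle and 1 of 5 mesothelial markers averaged 100 or less.

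Of 7 tested pan-epithelial markers 5 were higher in dysplasia (median 1.37), and their sum was 69183 to 88244 on dysplasia, 36583 to 39936 on transgenic and 29517 to 35555 on non-transgenic arrays. Alveolar type 2 markers gave 1 of 8 higher and sums that overlapped (124782 to 208327 and 118331 to 187204), so that tissue labelled as lung carried its defining surfactant genes in all groups. Alveolar type 1 markers gave 6 of 9 lower and 1 higher. Both tested ciliated cell markers were higher (median 1.97), with the other 4 at 100 or less on average and sums of 1330 to 1784 on dysplasia, 266 to 504 on transgenic and 292 to 692 on non-transgenic arrays. Whether the 2 tested ones passed the signal limit only through dysplasia was not checked, so this count is descriptive. Of 4 club cell markers 2 were higher and 1 lower. Of 9 macrophage markers 6 were lower and 2 higher (median -0.30), with sums of 25642 to 30654, 28766 to 37497 and 20089 to 31219. None of 4 heart muscle markers was called by limma, and 1 had an unadjusted p under 0.05. Against non-transgenic tissue, where 57.0% of genes were called (27.6% higher, 28.8% lower), the endothelial, mesenchymal, mesothelial, pan-epithelial, ciliated and alveolar type 1 lists gave the same counts. There, 8 of 8 smooth muscle and 4 of 4 heart muscle markers were lower, 4 of 8 alveolar type 2 markers were higher, 1 of 4 club cell markers was lower, and of 9 macrophage markers 3 were higher and 1 lower. In transgenic against non-transgenic tissue, where 1.98% of genes were called, 1.84% higher and 0.147% lower, 4 of 7 pan-epithelial markers (median 0.25) and 3 of 9 macrophage markers (median 0.61) were higher and 1 of 8 smooth muscle markers was lower, while no FGF probe set was called by limma. The areas cut by microdissection differed by design, dysplastic in the dysplasia group and unaltered in the transgenic group. Each area was measured as a whole. Fewer cells of a type and less RNA per cell therefore cannot be told apart, for Fgfr4 and Fgf7 or, in the other direction, for Fgfr2.

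**Figure D3:**
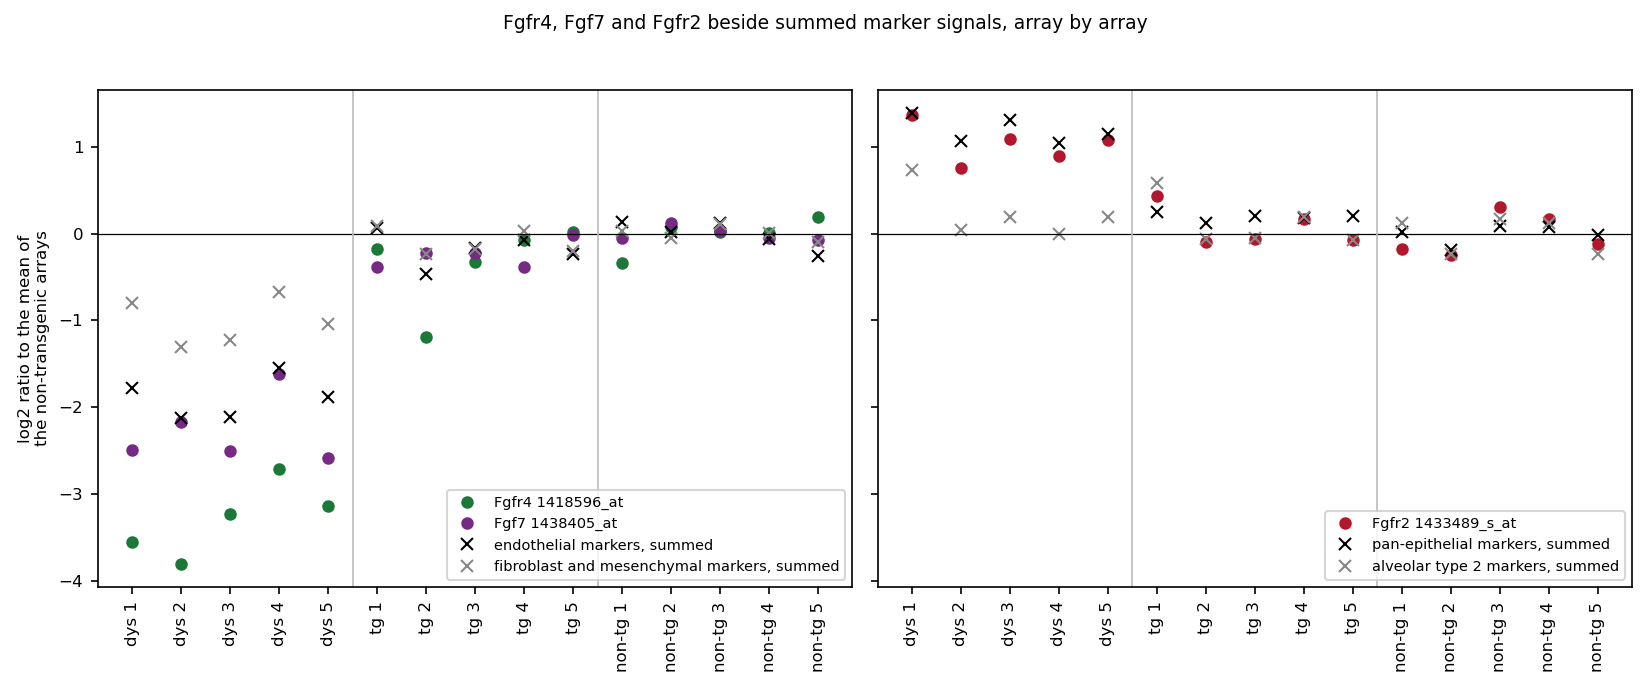
Log2 ratio to the mean of the non-transgenic arrays (vertical axes) on each of the 15 arrays (horizontal axes) for Fgfr4 and Fgf7 beside summed endothelial and fibroblast markers (left) and for Fgfr2 beside summed pan-epithelial and alveolar type 2 markers (right). On the 5 dysplasia arrays Fgfr4 and Fgf7 lie below both marker sums, Fgf7 by little on dysplasia 2 and 4. Fgfr2 lies close to the pan-epithelial sum, and transgenic 2 is low for Fgfr4.

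The genes whose pattern was most like that of the leading members are given as a description, with Pearson's r of log2 signals over the 15 arrays, which fall into separate groups and so give high values readily. For Fgfr4 these were Adgrl4, an endothelial adhesion receptor (0.9924), Lipg, the endothelial lipase (0.9918), and Galnt18 (0.9917). For Fgf7 they were the channel gene Trpc1 (0.9936), Gpm6b (0.9935) and Gng2 (0.993). Fgfr2 was most like Ssna1 (0.9831), the heparan sulfate proteoglycan gene Sdc4 (0.9769) and Cbr1 (0.9729), and Fgf1 most like Zdhhc14 (0.9813), Adcy2 (0.9813) and Sytl4 (0.9724).

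Further genes of FGF signalling were read from 4 lists. In the list of feedback inhibitors and targets, 9 of 12 genes were tested, and in dysplasia against transgenic tissue 6 rose, 1 fell and 2 were not called, with a median log2 change of 0.66 over the probe sets, beside -0.01 over all tested and calls in 44.2% of all genes. One of the 6, Etv4, passed the signal limit through dysplasia, where it is high, and so had to differ; of the other 8 genes 5 rose and 1 fell. The counts were the same in dysplasia against non-transgenic tissue, without dysplasia 4, without transgenic 2 and without both. Etv4, an Ets factor induced by FGF signalling, had a mean signal of 313 ± 24.0 on the dysplasia arrays but 8.89 ± 2.74 and 5.94 ± 0.98 on the transgenic and the non-transgenic ones, both close to background, so that only a bound can be given: dysplasia was at least 3.13-fold above the signal limit of 100. Spred1, an inhibitor of Ras to Raf signalling, rose 2.36-fold at its brightest probe set, and Dusp6, the phosphatase of ERK, rose 2.04-fold from 6426 ± 553 to 13086 ± 2189 (limma adjusted p = 1.77e-05 and 7.72e-05).

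Il17rd, which encodes the membrane inhibitor Sef, was the gene of that list that fell, from 941 ± 145 in transgenic to 286 ± 51.4 in dysplasia (log2 change -1.56, SE 0.13, limma adjusted p = 1.09e-05). Chosen after their values were seen, the others called were Spry2 (log2 change 0.90), Spry1 (0.66) and Etv5 (0.50), while Spred2 and Spry4 were not called. Etv5 was not called at its probe set 1420998_at (limma adjusted p = 0.296). The list holds outputs of Ras and ERK signalling from any source, and the source of these changes was not tested. Dysplasia and unaltered transgenic tissue both come from mice that carry the c-Raf transgene. None of the 9 genes was called in transgenic against non-transgenic tissue by limma, and 2 had an unadjusted p under 0.05, Spred1 and Il17rd (log2 changes -0.27 and -0.26, adjusted p = 0.387 and 0.388).

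Among co-receptors, adaptors and binding proteins 14 of 19 genes were tested, with 3 higher, 4 lower and 7 not called in dysplasia against transgenic tissue and a median of -0.19, a share of calls close to the 44.2% of all genes. Shc1, an adaptor of receptor kinases, rose 1.73-fold, and Cep43, a centrosomal protein first named for its fusion with FGFR1, rose 1.33-fold. Fibp, an intracellular protein that binds Fgf1, rose 1.38-fold at 1 of its 2 probe sets. Flrt3, a membrane protein that binds FGF receptors, fell from 2266 ± 653 to 1098 ± 224 (log2 change -0.98, SE 0.21, limma adjusted p = 0.00429). The other lower genes, named after their values were seen, were Grb2, Fgfbp1 and Gab1, with Grb2 and Gab1 not called at their second probe sets. With only the brightest probe set of each gene 3 were higher and 2 lower. Grb2 was not called without dysplasia 4 (log2 change -0.40, limma adjusted p = 0.0721), while Plcg1, a phospholipase recruited by the receptors, was called lower without transgenic 2 (-0.52, limma adjusted p = 0.0124), and Gab1 was not (adjusted p = 0.0635). Without both arrays there were 3 higher and 5 lower.

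Genes that make or edit heparan sulfate gave 2 higher, 3 lower and 7 not called of 12 tested, with a median of -0.13, again a share close to that of all genes. The sulfotransferase gene Hs3st3b1 rose 3.31-fold from 173 ± 50.5 to 573 ± 171 (log2 change 1.47, SE 0.20, limma adjusted p = 0.000173), and Hs6st1, also a sulfotransferase, rose 1.63-fold. Hs2st1, a further sulfotransferase, was called lower at 2 of its 4 probe sets and fell 1.60-fold at 1422739_at, and Sulf2, an extracellular sulfatase, fell by 0.72 on the log2 scale at 1442408_at and was not called at 1 of its 3 probe sets. The other lower gene was Hspg2, the proteoglycan perlecan, named after its values were seen. Without transgenic 2 the counts were 2 higher and 4 lower, as Ext2, which elongates the chains, was then called lower (log2 change -0.43, limma adjusted p = 0.00996).

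Against non-transgenic tissue the co-receptor list gave 3 genes higher, 7 lower and 1, Grb2, called both ways by different probe sets, and the heparan sulfate list 2 higher, 2 lower and 1, Sulf2, both ways, as 0.603% of all genes were. Neither list held a call in transgenic against non-transgenic tissue by limma, and each had 3 genes with an unadjusted p under 0.05. The smallest p in the first list were those of Cep43 (log2 change 0.29, limma adjusted p = 0.178) and Grb2 (log2 change 0.25, limma adjusted p = 0.211). In the second they were those of Sulf2 (log2 change 0.45, limma adjusted p = 0.178) and Hs3st3b1 (log2 change 0.54, limma adjusted p = 0.190). Of 17 other FGF ligand genes on the array 2 were tested: Fgf11 fell 1.56-fold in dysplasia against transgenic tissue (log2 change -0.52, SE 0.12, limma adjusted p = 0.00466), and Fgf13 was not called (log2 change -0.10). Against non-transgenic tissue Fgf11 gave -0.43 (limma adjusted p = 0.0273), a call lost without dysplasia 4 (adjusted p = 0.0558).

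**Figure D4:**
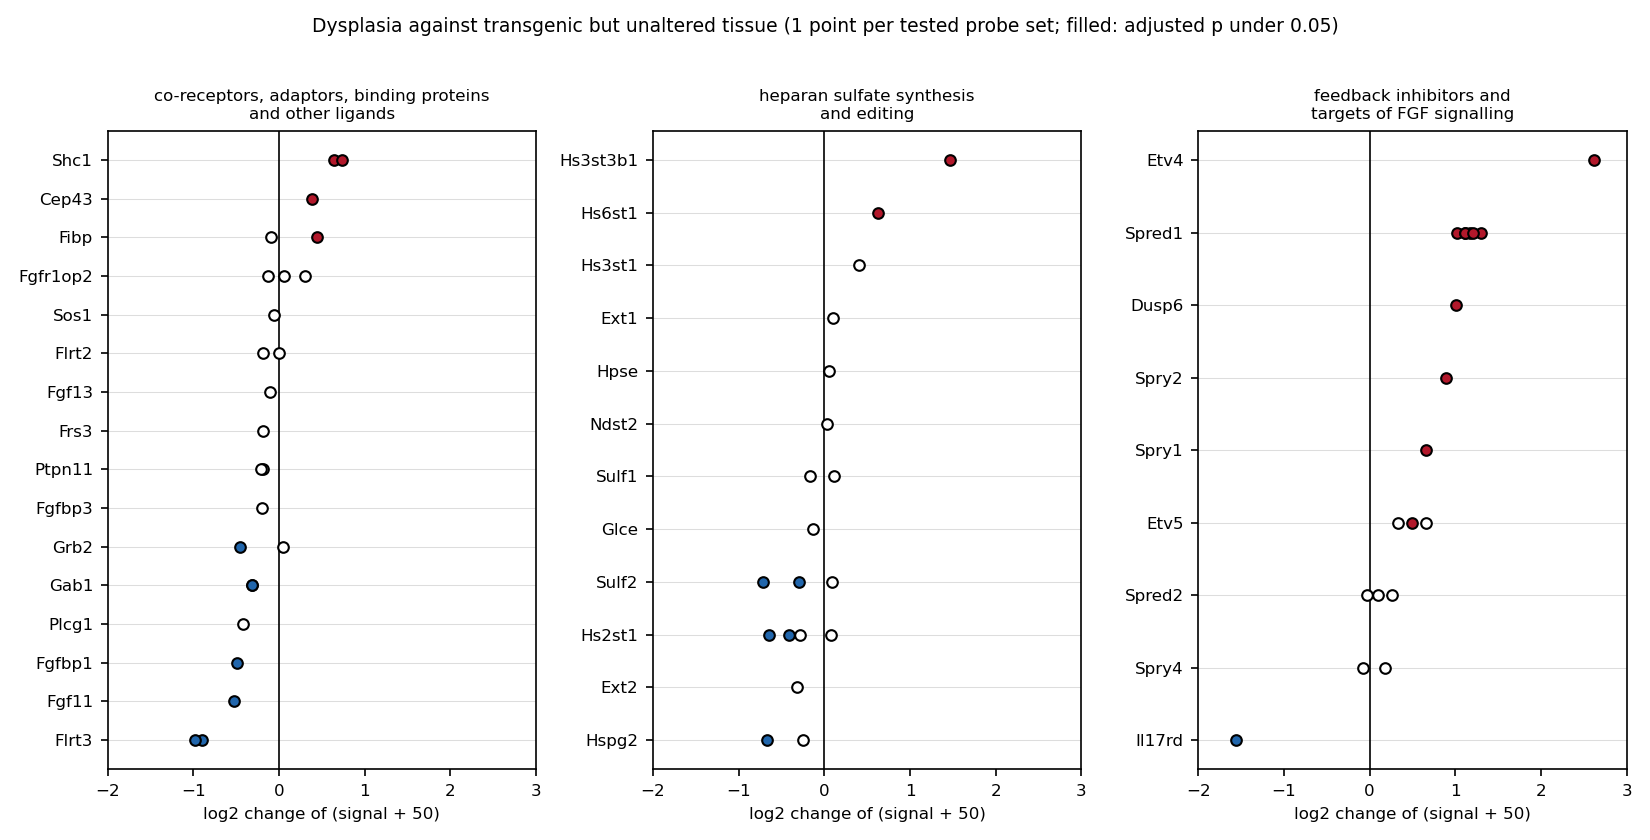
Log2 change of signal plus 50 (horizontal axes) in dysplasia against transgenic but unaltered tissue for genes of the 4 further lists, with 1 point per tested probe set; filled points passed an adjusted p of 0.05 (red higher, blue lower). Il17rd lies farthest left at -1.56; the point farthest right is Etv4, whose signal outside dysplasia was under the limit, so that its place depends on the offset of 50.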

How the data were processed

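Signal intensities, 1 value per probe set and array, had been computed by the authors with GCOS (version not given in the sources used here) at default settings, each array scaled to a target signal of 500, and were deposited on a linear scale. From them log2(signal + 50) was tested with limma 3.58.1 (lmFit, eBayes) in R 4.3.3, 2 groups at a time without pairing, on the 21658 of 45037 probe sets whose signal averaged above 100 on the 15 arrays; the 64 control probe sets were left out. Benjamini-Hochberg adjustment ran over all probe sets tested, and calls were made at an adjusted p under 0.05. The procedure was tested on simulated data. Present or absent calls were not used here.

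Gene names came from the platform annotation updated through RefSeq: 34945 probe sets had 1 symbol, 932 had several and 9160 had none, and those with several or none were left unnamed. Which transcripts or exons a probe set reads was not analysed here, nor were protein sequences. A gene counts as higher or lower if any tested probe set is called, with the brightest probe set as an alternative. In each further list up to 4 genes with the smallest p in dysplasia against transgenic tissue and up to 2 in transgenic against non-transgenic tissue are named; the 3 genes most like a member are those with the highest r. Members, lists and settings were chosen with earlier results of these data known.

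The study took dysplastic and unaltered tissue from the same mice, without tying array numbers to mice. Same-numbered dysplasia and transgenic arrays deviated together from their group means (r = 0.732, 0.773, 0.625, 0.219 and 0.71, against a mean of -0.15 for other numbers), and 10 of 10 arrays correlated best with the array of their own number. Same-numbered transgenic and non-transgenic arrays, from different mice, gave 0.135 to 0.793. Alternatives were offsets of 16 and 0 (floor 1), quantile and total scaling, no limit and a limit of 200, all 3 groups together, the replicate block, a variance trend, a SAM-type statistic with 100 permutations, Xist and actin ratio as covariates, and each array left out; leaving out dysplasia 4 and transgenic 2 together, and the list counts without them, were chosen after seeing the data.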

Additional observations from a re-analysis of the deposited data

Results flagged for a closer look

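Of 69 sets of 5 arrays (23 FGF probe sets in 3 groups), 4 held a signal whose gap to its nearest neighbour took up more of the group's range on the log2 scale than Dixon's critical value of 0.71; chance gives about 1 in 20. Of these 4, 3 were below the signal limit: Fgfr4 1427845_at was 18.2 on dysplasia 1 (nearest 2.45) and 33.1 on non-transgenic 3 (nearest 5.82), and Fgf2 1449826_a_at was 32.7 on transgenic 1 (nearest 17.2). Fgfr2 1420847_a_at was lowest on non-transgenic 5 at 203 (nearest 283).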

How the results depend on the processing

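For the 16 tested FGF probe sets in 3 comparisons, 1060 values were computed under the alternatives. Of these, 1000 kept their side of the threshold, 53 lost a call, 7 gained 1, and none turned a call round. The 1000 include 63 uncalled values that changed sign. The counts of FGF probe sets higher in dysplasia (2 and 2) and called in transgenic against non-transgenic tissue (0) were the same in all alternatives. Lower FGF probe sets numbered 9 against transgenic and 10 against non-transgenic tissue in the main fit, and 6 to 9 and 8 to 11 on leaving out 1 array. The SAM-type statistic gave 6 and 11, Xist as a covariate 7 and 9, and the actin ratio 7 and 11, in that order. With a limit of 200, where fewer probe sets are tested, 6 were lower in each of these comparisons. Over all probe sets transgenic against non-transgenic tissue gave 272 calls, but 46 with the SAM-type statistic, 110 with Xist and 506 with the actin ratio as a covariate, and 118 to 291 on leaving out 1 array; calls fell to 147 without transgenic 2, 123 without transgenic 3, and 126, 143, 118 and 179 without non-transgenic 1 to 4. The cause was not tested. With the replicate block, the fit paired by number, 10 FGF probe sets were lower against transgenic and 11 against non-transgenic tissue, and all calls numbered 10661, 10741 and 329; it changed no FGF call besides Fgfr1 1425911_a_at and Fgf18. Dysplasia and non-transgenic arrays came from different mice. Those of the same number gave r = 0.439, 0.603, 0.261, -0.00366 and 0.727, against a mean of -0.0995 for other numbers. In 5 of 10 arrays the best match was the own number. What same-numbered arrays of different mice have in common was not tested. Signals under 100 are close to background, which limits Fgf2, Fgf10, the dim probe sets of Fgfr4 and Etv4 outside dysplasia.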
